A study of Mus musculus with 18 samples.

Results

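Fibroblasts that had been given the transcription factors TAL1 and LMO2 were set beside hematopoietic progenitors (HPs) grown from embryonic stem cells (ESCs), to describe which parts of the HP expression program the induced cells hold, which they lack and what they carry in addition. Of the 20310 genes of the table of ESC-derived stages and the 20495 genes of the table of fibroblasts, 19756 genes that are named once in both were compared. The tables were normalized separately, so no level was set against a level of the other table. Each gene was instead given its percentile within a column, from 0 for the lowest to 100 for the highest FPKM (fragments per kilobase of transcript, scaled to the mapped fragments of a library) of the 19756 genes.

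The HPs were CD41+ cells of strain 129, made from an ES cell line with a Brachyury-GFP reporter, and the authors' table gives 1 combined value for the 2 HP samples. Hemangioblasts (HBs), the stage before the endothelial steps, and macrophages (MACs) made from the same course, both of the same table, were used for context. The fibroblasts were mouse embryonic fibroblasts (MEFs) of strain 129 from day 14.5 of gestation, either wild type or iTal1-2A-GFP, in which doxycycline turns on TAL1 from a transgene, and cells that carried the blood or endothelial surface proteins CD45, CD41, CD31 or CD117 had been removed from them by sorting. LMO2 came from a lentivirus, and the cells were kept in a medium with blood cytokines. The libraries labelled Scl/Lmo2 are called SL here, *Scl* being the other name of *Tal1*, and those of untreated fibroblasts are called uFIB. Each had 1 library at day 12 and 1 at day 21, and the labels do not say which MEF genotype each library came from. SFGL libraries, made with TAL1, FLI1, GATA2 and LMO2, served as a second set. Libraries labelled FGL, made with FLI1, GATA2 and LMO2, entered only where every fibroblast library is named. The study describes the profiled cells as blood cells obtained by reprogramming, but gives no step that parted them from fibroblasts before RNA was prepared, so that fewer cells of a type and less RNA per cell cannot be told apart. With 1 library per condition and 1 combined HP value there is no replicate error and no test, and FPKM do not show the depth. All differences below are descriptions of these columns.

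TAL1 and LMO2 act in one complex on DNA, where LMO2 bridges TAL1, bound at E-boxes, and GATA factors, and both are needed for all blood lineages. Blood made early from ESCs resembles that of the yolk sac. Like later blood, it arises from endothelial cells. Its first red cells carry embryonic globins, and it keeps oncofetal RNA-binding proteins of the LIN28 and IGF2BP families, whereas later red cells use adult globins.

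Across all genes, the ranks of SL lay closer to those of HP than the ranks of uFIB did. Spearman's rho with HP was 0.823 for uFIB day 12, 0.820 for uFIB day 21, 0.864 for SL day 12 and 0.868 for SL day 21. The shift was not toward HP alone. With MAC, rho was 0.801 and 0.806 for uFIB and 0.852 and 0.846 for SL. SL still ranked genes more like its own starting cells, with a rho with uFIB day 12 of 0.910 at day 12 and 0.914 at day 21, and HP ranked genes more like HB, with a rho of 0.934. These are values across genes, which are not independent, and part of the gap between HP and every fibroblast library lies between the tables. A gene was called lower or higher in SL when its percentile differed from that in HP by at least 25 points in the same direction in both SL libraries, with the higher side at percentile 50 or more. By this rule 331 genes (1.68% of all) were lower and 701 (3.55%) were higher in SL than in HP. The same rule called 760 lower and 1002 higher genes in the uFIB libraries (3.85% and 5.07%), but only 10 lower and 29 higher genes between uFIB day 21 and uFIB day 12 (0.0506% and 0.147%). Between SL day 21 and SL day 12 it called 22 lower and 16 higher genes (0.111% and 0.081%). Against HP, it called 288 lower and 658 higher genes in both SFGL libraries (1.46% and 3.33%), 313 and 198 in HB (1.58% and 1%), and 555 and 699 in MAC (2.81% and 3.54%).

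**Figure D1:**
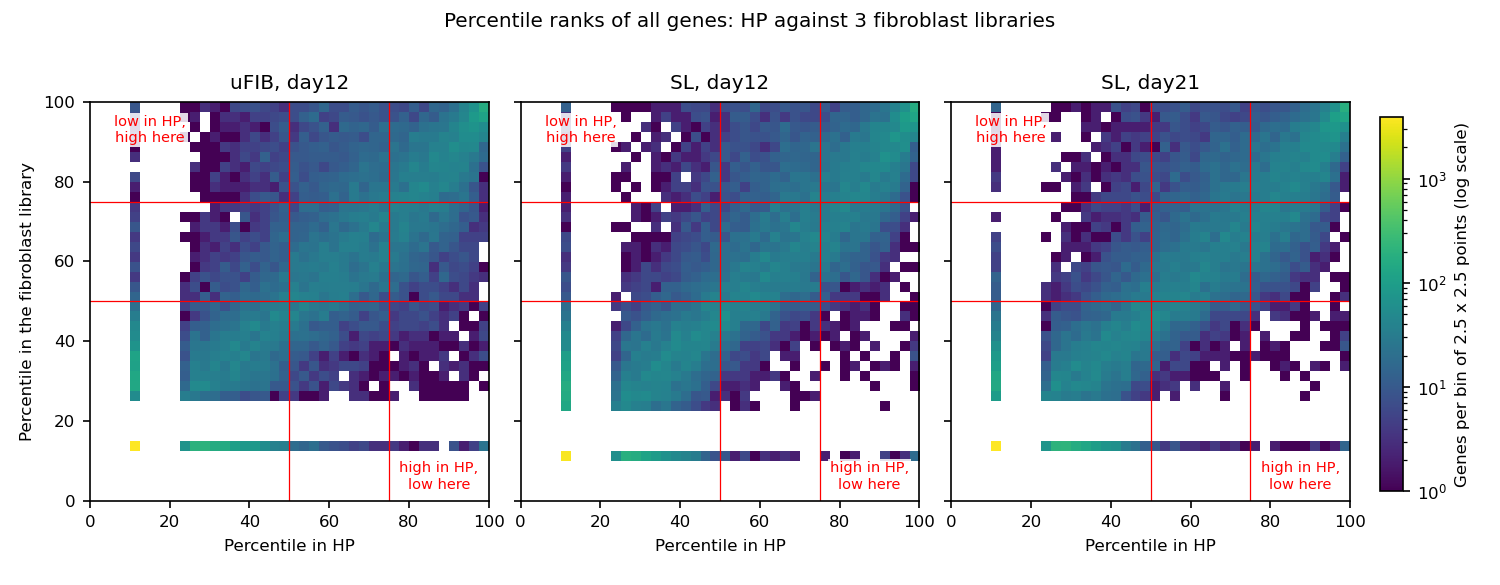
Percentile of each gene in HP (x axis) against its percentile in uFIB day 12, SL day 12 and SL day 21 (y axes), as the number of genes in bins of 2.5 by 2.5 points on a log color scale, with red lines at percentiles 50 and 75. Genes that are high in HP and low in the library are fewer in both SL panels than in the uFIB panel, and the lines at about percentile 12 are genes listed at 0.

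A part of what separates HP from SL separates all stages from all fibroblast libraries. Replication-dependent histone genes supply histones during DNA replication, and their mRNAs have no poly(A) tail. Of 60, 54 were lower in SL (90%, against 1.68% of all genes). Their median percentile was 99.5 in HP, 20.6 in SL day 12 and 34.5 in SL day 21. They were low in the untreated cells too, at a median of 13.2 in uFIB day 12 and 35.8 in uFIB day 21. *Hist1h1a*, a linker histone gene, was at percentile 99.97 in HP and 91.2 in MAC, but at 36.4 and 39.1 in uFIB and at 39.0 and 33.1 in SL. In the other direction, 22 of 79 cytosolic ribosomal protein genes (27.8%, against 3.55% of all genes) were higher in SL. Their median of 90.5 in HP stood against 99.5 and 99.4 in uFIB and 99.6 in both SL libraries. Without the genes that differed between the tables in every column 5 were higher, and with a difference of 40 points 8 were. The glycolytic enzyme gene *Gapdh* was at percentile 44.4 in HP and 42.3 in MAC and above 99 in every fibroblast library. The ferritin heavy chain gene *Fth1* was at 29.3 in HP. Both were chosen after their values were seen. Library preparation and alignment differed between the tables, and for such genes the table and the cells cannot be told apart. In all, 49 genes (0.248%) ranked at least 25 points higher in every stage than in every fibroblast library, and 176 (0.891%) the other way round. Contrasts of SL with uFIB stay within 1 table.

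High is used below for percentile 75 or more and low for under 50. There were 269 genes (1.36%) that were high in HP and low in both uFIB libraries and so had to be gained for an HP-like ranking. Of these, 60 (0.304%) were high in both SL libraries and are called acquired, 88 (0.445%) were low in both and are called not acquired, and 121 (0.612%) lay between. Histone genes made up 48 of the 88 that were not acquired and none of the 60. Without histone genes, 219 remained, of which 31.1% were high in SL day 12 and 28.8% in SL day 21, 21.5% were low on each day, and the median percentile was 63.6 and 61.4. The SFGL libraries took no part in the choice. There, 57 of the 60 acquired genes were high in both libraries, as were 3209 of all 3294 genes high in HP and both SL libraries. Of the 88 not acquired genes, 77 were low in both, and of the 40 that are no histone genes, 29 were. Of the 219 genes without histone genes, 32 were low in both, and of all 4883 such genes high in HP, 48 were. Of the 60 acquired genes, 36 (60.0%) were high in MAC and 7 (11.7%) in HB, while of the 40 not acquired genes that are no histone genes, 9 (22.5%) were high in MAC and 26 (65.0%) in HB. Both classes were drawn from the 219 genes above, of which 26.9% were high in MAC and 51.1% in HB. Of all 4883 genes high in HP, without histone genes, 72.6% were high in MAC and 85.8% in HB.

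**Figure D2:**
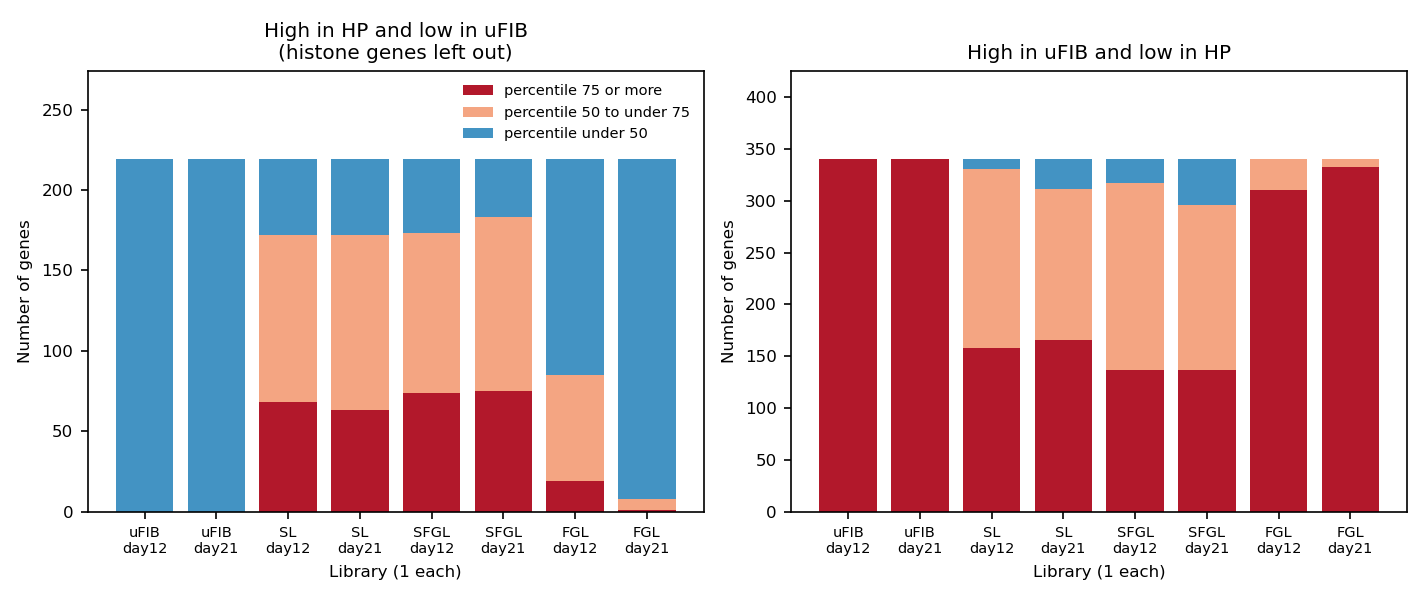
Number of genes (y axis) at percentile 75 or more, 50 to under 75 and under 50 in each fibroblast library (x axis, 1 library each), for the 219 genes high in HP and low in uFIB without histone genes (left) and the 340 genes high in uFIB and low in HP (right). The status in uFIB is fixed by the choice of genes, and in SL day 12 the left set holds 68 high genes and the right set still holds 158.

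The transcription factors of blood had a similar median percentile in SL and HP, while single members differed in both directions. The supplied factors themselves were high, with *Tal1* at percentile 94.3 and 99.3 in SL day 12 and day 21 against 97.7 in HP, and *Lmo2* at 93.8 and 98.3 against 97.1. Their mRNA in SL includes what the transgene and the virus made. Of 30 blood transcription factors measured, 2 were lower and 4 were higher than in HP, against 1.68% and 3.55% of all genes, and 11 ranked at least 25 points above both uFIB libraries in both SL libraries, against 2.07% of all genes. At a difference of 40 points 1 of the 30 was higher than in HP. The median of the 30 was 84.4 in HP, 43.4 and 43.9 in uFIB and 82.8 and 85.7 in SL, where that of all genes is 50. *Sfpi1*, which codes for the myeloid and lymphoid factor PU.1, stood at percentile 87.6 in HP, 30.2 and 41.7 in uFIB, and 98.1 and 96.4 in SL. *Myb*, which is needed for definitive blood, was at 89.7 in HP, 32.5 and 37.3 in uFIB, and 97.6 in both SL libraries. Both thus stood above their HP percentile in both SL libraries.

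*Gata1*, a factor of red cells and megakaryocytes, was at percentile 95.6 in HP, 13.2 and 26.9 in uFIB, and 81.1 and 88.8 in SL. *Klf1*, which drives adult globin and other red cell genes, was at 93.7 in HP and at 83.9 and 92.2 in SL. *Gfi1b*, a repressor of the red cell and megakaryocyte lineages, was at 91.9 in HP, listed at 0 in both uFIB libraries, and at 77.0 and 86.4 in SL. In all 3 the day 21 library stood above the day 12 library and below HP, and none met the rule for lower. *Gata2*, which serves stem cells and mast cells and was not supplied in SL, was higher there, at 95.1 and 95.3 against 62.7 in HP. *Gfi1* and *Cebpe*, both factors of the granulocyte lineage, were higher as well, with *Cebpe* at 45.4 in HP, 30.6 and 37.9 in uFIB, and 97.9 and 96.7 in SL. *Cebpa* was also called higher, at 92.1 and 87.7 against 58.1 in HP, but it was already at 94.7 and 96.1 in uFIB. The 2 factors called lower were *Meis1*, a homeobox factor of stem cells and megakaryocytes, at 55.4 and 57.4 against 84.4 in HP, and *Irf8*, a factor of monocytes and dendritic cells, at 35.3 and 29.3 against 60.6. *Mef2c*, a factor of megakaryocytes and lymphoid cells named after its values were seen, was at 85.8 in HP and at 41.3 and 41.5 in SL, below its 51.7 and 54.0 in uFIB.

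Promoter windows from RefSeq (build GRCm38.p6, 250 bases before to 50 bases after a transcription start) were searched on both strands for the spacing bound by TAL1 with a GATA factor, CTG and GATAA with 8 or 9 bases between them. Exactly 1 window was given for 33 of the 60 acquired genes, of which 2 (6.06%) held a match, against 154 of 12164 genes (1.27%). The matches lay in the promoters of *Gfi1b* (chr2:28622072-28622138, minus strand) and *Klf1* (chr8:84901877-84901942, plus strand). They are printed 5′ to 3′ along the gene with 25 bases on each side and the match in capitals, because both genes were high in SL without having been supplied.
Gfi1b: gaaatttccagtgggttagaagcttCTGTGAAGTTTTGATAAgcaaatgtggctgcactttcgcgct
Klf1: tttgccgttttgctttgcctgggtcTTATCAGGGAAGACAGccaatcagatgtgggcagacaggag
In *Klf1* the capitals are the reverse complement of the motif. A match describes letters only, and binding was not measured in these libraries. The other shorter motifs were searched in the same windows. The GATA motif AGATAA was in 6 acquired genes (18.2%) against 9.95% of all, the ETS motif AGGAAGT in 9 (27.3%) against 9.29%, and the C/EBP motif TTGCNNAA in 2 (6.06%) against 10.1%. AGATAA can overlap the longer motif.

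Red cell genes also had a median near that of HP. Of 33 measured, 2 were lower (6.06%, against 1.68% of all genes) and 3 higher (9.09%, against 3.55%) than in HP, 19 ranked at least 25 points above both uFIB libraries (2.07% of all genes), and the median was 82.9 in HP, 31.6 and 34.8 in uFIB, and 79.4 and 84.4 in SL. At a difference of 40 points 1 of the 33 was higher than in HP. *Slc4a1*, the anion exchanger of the red cell membrane, stood at percentile 82.9 in HP, 26.7 and 12.3 in uFIB, and 95 and 95.4 in SL. *Alas2*, the first enzyme of heme synthesis in red cells, was at 95.3 in HP and 93.4 and 92.8 in SL. Both genes were thus at or above percentile 90 in both SL libraries and under 40 in uFIB. *Sptb* (beta spectrin), a gene of the membrane skeleton, was among the lower ones, at 93.4 in HP, 31.0 and 30.5 in uFIB, and 56.7 and 61.1 in SL.

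The globins differed in kind and in rank. The embryonic alpha-like *Hba-x* was at percentile 99.9 in HP, listed at 0 in both uFIB libraries, and at 91.4 and 97.7 in SL, and the embryonic beta-like *Hbb-y* was at 99.9 in HP and 82.1 and 90.7 in SL. The adult beta globin entry *Hbb-b1,Hbb-b2* was at 51.6 in HP and at 99 and 99.3 in SL. The other adult beta globin entry, *Beta-s*, was high in HP too, at 94.7, and at 99.7 in both SL libraries. Within the HP column, the embryonic beta-like globins *Hbb-bh1* and *Hbb-y* summed to 5712 FPKM against 33.7 FPKM for the adult beta globin entries, which left the adult entries at 0.586% of the sum. Within the SL columns, the adult entries summed to 1230 FPKM at day 12 and 1214 FPKM at day 21, or 96.6% and 93.8% of their own sums. The order of embryonic and adult globin was thus opposite in HP and in both SL libraries. Adult beta globin copies are nearly identical, and the HP column kept uniquely aligned reads only, which can lower such copies, and its part in these values was not tested.

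Receptors and surface proteins were mixed. Of 25 measured, 1 was lower (4%, against 1.68% of all genes) and 4 higher (16%, against 3.55%) than in HP. The median was 59.5 in HP and 75.1 and 70.7 in SL. *Csf2rb*, the shared receptor chain for IL3, IL5 and GM-CSF, was at 77.0 in HP, 34.5 and 42.6 in uFIB, and 98.7 and 98.5 in SL, and its mouse paralog *Csf2rb2* was at 56.0 in HP and 97.3 and 96.2 in SL. *Kit*, the receptor of stem cell factor, was at 87.8 in HP and only at 69.8 and 59.1 in SL. *Itga2b*, which codes for CD41, was at 98.0 in HP, where CD41 had been used to sort the cells, and at 92.9 and 94.3 in SL. *Ptprc*, the pan-leukocyte CD45 gene, was at 69.7 in HP and 57.0 and 46.6 in SL.

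Megakaryocyte genes were held in part. Of 24, 4 were lower (16.7%, against 1.68% of all genes) and none higher (against 3.55%). At a difference of 40 points 1 was lower, and with SFGL in place of SL 3 were. The median was 62.2 in HP, 32.8 and 33.8 in uFIB, and 50.4 and 54.9 in SL. *Pf4* (platelet factor 4) and *Plek* (pleckstrin) were acquired, with *Pf4* at 91.7 in HP and 83.9 and 87.6 in SL. *Tubb1*, the tubulin of platelets, was at 96.4 in HP but 49.0 and 50.6 in SL, and *Clec1b*, a platelet receptor, was at 76.0 in HP and 44.3 and 36.8 in SL.

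Among the genes high in HP and low in SL were oncofetal and endothelial genes. Histone genes were among them too, but they were low in uFIB as well, and the table and the cells cannot be told apart for them. Altogether, 104 genes (0.526%) were high in HP and low in both SL libraries, and none of them was high in both uFIB libraries. Of the 104, 36 ranked at least 25 points higher in every stage than in every fibroblast library. Histone genes made up 49 of the 104. Of the other 55, 36 were high in HB and 12 in MAC, and 39 were low in both SFGL libraries. Of all 4883 genes high in HP, without histone genes, 4191 were high in HB and 3544 in MAC, and 48 were low in both SFGL libraries. With histone, small RNA, Rik and Gm symbols left out, the 3 genes with the largest differences were *Csl*, *Lin28b* and *BC048507*. All 3 ranked at least 25 points higher in every stage than in every fibroblast library. For such genes the table and the cells cannot be told apart. *Lin28b*, which blocks the maturation of let-7 microRNAs in fetal cells, was at 92 in HP, 89.5 in HB and 65.6 in MAC. It was at 13.2 and 12.3 in uFIB, and at 24.1 and 12.8 in SL.

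Oncofetal and imprinted genes held 7 of 16 members lower in SL (43.8%, against 1.68% of all genes), and 1 higher (6.25%, against 3.55%). Without the genes that differed between the tables in every column 6 were lower. *Trim71*, a let-7 target and RNA-binding protein, was at 92.6 in HP and at 35.1 and 38.4 in SL, *Dnmt3b*, a de novo DNA methyltransferase, at 93.1 in HP and 43.1 and 44.4 in SL, and *Igf2bp1*, which binds fetal mRNAs, at 97.4 in HP and 46.1 and 49.8 in SL. *Mycn*, *Igf2bp3* and *Sall4* were lower as well. All 7 stood at percentile 89.5 or more in HB. Imprinted growth genes of the same list did not share this: *Igf2* was at 99.2 in HP, 99.8 and 99.9 in uFIB and 99.1 and 98.9 in SL. *Lin28a* differed between the days, at 91.7 in HP, 74.2 in SL day 12 and 53.9 in SL day 21. The gene that was higher was *Hmga1*, a chromatin protein, at 98.8 and 98.6 in SL against 63.1 in HP.

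Endothelial genes were missing in part. Of 31, 6 were lower in SL (19.4%, against 1.68% of all genes) and none was higher (against 3.55%). At a difference of 40 points 3 were lower. The median was 52.7 in HP, 33.1 and 32.6 in uFIB and 44.9 in both SL libraries. *Kdr*, which codes for the VEGF receptor FLK1, was at 90.9 in HP, 42.3 and 32.6 in uFIB, and 33.5 and 32.8 in SL. *Tie1*, a receptor of endothelial cells, was at 93.1 in HP and at 32.6 in both SL libraries, and *Tek*, the receptor TIE2, was at 79.4 in HP and 44.3 and 37.2 in SL. *Cdh5*, the cadherin of endothelial junctions, was at 80.8 in HP and 51.6 and 54.6 in SL. *Etv2*, which starts the endothelial program in mesoderm, was at 56.5 in HP and listed at 0 in all uFIB and SL libraries. *Kdr*, *Tie1* and *Tek* thus had under percentile 45 in SL, as in untreated fibroblasts. *Lyve1*, a receptor of lymphatic and yolk sac endothelium, ran the other way, at 52.7 in HP, 31.7 and 30.5 in uFIB, and 75.5 and 95.5 in SL, and did not meet the rule at day 12. The HP sort kept CD41+ cells, and the part that endothelial cells play in the HP values was not tested.

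Further genes that were not acquired were *Hapln1*, a link protein of hyaluronan matrix, at 89.7 in HP and 29.6 and 27.1 in SL, and *Krt8*, a keratin of simple epithelia, at 92.1 in HP and 32.9 and 28.5 in SL. Cell cycle genes ranked between uFIB and HP. Of 36, 3 were lower (8.33%, against 1.68% of all genes) and none higher (against 3.55%). The 3 were *Ccne2*, *Gins1* and *Orc1*, all of the start of replication. The median was 95.7 in HP, 61.7 and 61.4 in uFIB, and 86.7 and 87.1 in SL. With only genes of at least 1 FPKM ranked 9 were lower, with SFGL in place of SL 1 was, and with a difference of 40 points none was. *Mki67*, a marker of dividing cells, was at 97.3 in HP, 62.2 and 63.9 in uFIB, and 93.4 and 94.1 in SL.

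**Figure D3:**
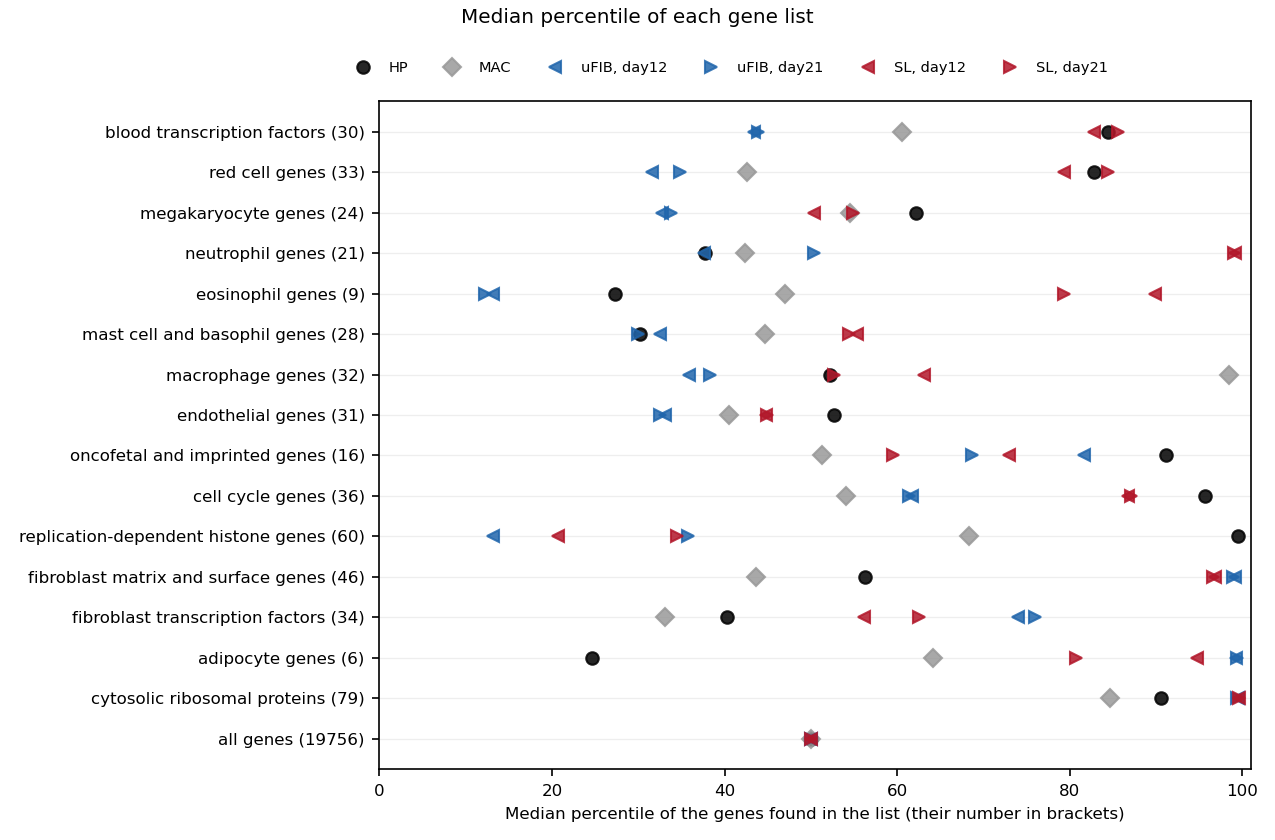
Median percentile (x axis) of the genes found in each of 15 gene lists and of all genes (y axis, number of genes in brackets) in HP, MAC, uFIB and SL, with each point 1 column and no error. SL lies beside HP for blood transcription factors and red cell genes, beside or near uFIB for fibroblast matrix genes, and above both for the 3 granulocyte lists.

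What SL carried in excess of HP was partly present in the untreated cells. There were 234 genes (1.18%) that were low in HP and high in both SL libraries. Of these, 134 were also high in both uFIB libraries and are called retained, 50 lay between, and 50 (0.253%) were low in both uFIB libraries and are called gained. Their median percentile was 39.8 in HP, 33.2 and 38.8 in uFIB, and 94.2 and 90.1 in SL. Of the 50, 46 were high in both SFGL libraries, which also had TAL1 and LMO2, as were 194 of the 234. In MAC 10 of the 50 were high, against 35 of the 234, and in HB 1 was, against 4. Of all 19756 genes, 4939 were high in MAC, so 10 of 50 is not above that share. Of the 50, 19 were low in all 5 stages of the ESC course. Low in HP was part of their choice, and no share of all genes was counted for this. With day 12 alone the count of gained genes was 81, and with day 21 alone it was 59.

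The eosinophil genes held 4 of 9 members higher (44.4%, against 3.55% of all genes) and none lower (against 1.68%). Their median was 27.3 in HP, 13.2 and 12.3 in uFIB, and 89.9 and 79.4 in SL. *Prg2*, the eosinophil major basic protein, was listed at 0 in HP, was at percentile 44.0 and 37.4 in uFIB, and at 99.8 and 99.96 in SL. It was at 87.9 in MAC. *Epx*, eosinophil peroxidase, was at 27.3 in HP, 37.8 and 29.1 in uFIB, and 99.3 and 99.5 in SL. *Prg3* and the ribonuclease gene *Ear1* followed, the latter in a family of near-identical copies whose reads can be split. *Ear10* of that family was at 89.9 in SL day 12 but listed at 0 in SL day 21. *Il5ra*, the receptor that eosinophils need for IL5, was low throughout, at 29.0 in HP and 27.4 and 30.0 in SL.

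Of 28 mast cell and basophil genes, 11 were higher (39.3%, against 3.55% of all genes) and none lower (against 1.68%). The other 17 were called neither, and 7 of the 28 were low in both SL libraries. The median was 30.2 in HP, 32.5 and 30.0 in uFIB, and 55.3 and 54.4 in SL. *Mcpt8*, a protease of mouse basophils, was listed at 0 in HP and was at 44.5 and 47.2 in uFIB and 99.6 in both SL libraries. *Prss34*, another basophil protease, was listed at 0 in HP and was at 98.1 and 97.7 in SL. *Cpa3*, a carboxypeptidase of mast cells and basophils, was at 42.8 in HP and 95.2 in both SL libraries, and *Hdc*, which makes histamine, was at 46.6 in HP and 97.5 and 95.8 in SL. Genes of mature mast cells of connective tissue did not share these ranks, with *Mrgprb1* and *Mrgprb2* listed at 0 in every SL and uFIB library. *Cyp11a1*, the first enzyme of steroid hormone synthesis, which basophils and mast cells can also express, was at 30.6 in HP and 98.0 and 97.5 in SL.

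The same promoter search found the spacing of CTG and GATAA in 5 of the 29 gained genes with 1 window (17.2%), none of the 22 such genes that were not acquired and are no histone genes, and 1 of 72 retained genes (1.39%). The 4 whose stretch ends before the transcription start are printed as above, since 3 of them are granule protein genes of granulocytes or mast cells. In *Prg3* the capitals are again the reverse complement.
Cpa3 (chr3:20242197-20242262, minus strand): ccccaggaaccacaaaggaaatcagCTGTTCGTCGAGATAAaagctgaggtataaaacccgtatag
Prg3 (chr2:84988079-84988144, plus strand): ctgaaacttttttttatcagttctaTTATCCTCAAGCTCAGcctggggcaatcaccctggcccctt
Prss34 (chr17:25298327-25298393, plus strand): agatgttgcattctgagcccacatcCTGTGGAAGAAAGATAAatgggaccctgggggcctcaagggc
Ces2g (chr8:104961551-104961617, plus strand): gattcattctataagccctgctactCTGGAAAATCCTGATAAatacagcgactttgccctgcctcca
The fifth match was in *Ear1*. Of the shorter motifs, AGATAA was in 4 of the 29 (13.8%), AGGAAGT in 7 (24.1%) and TTGCNNAA in 6 (20.7%). In the 22 not acquired genes, AGATAA was in 5 (22.7%), and AGGAAGT and TTGCNNAA were in 1 each (4.55%). In the 72 retained genes, AGATAA was in 4 (5.56%), AGGAAGT in 5 (6.94%) and TTGCNNAA in 14 (19.4%). The counts are small, and the share of all promoters that hold the match, 1.27%, is for windows of the same length.

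Neutrophil genes had the largest share of higher members, 17 of 21 (81.0%, against 3.55% of all genes), with none lower (against 1.68%). Their median was 37.7 in HP and 99.2 and 99 in SL. *Elane*, neutrophil elastase, was at 53.8 in HP, 42.4 and 50.4 in uFIB, and 99.3 and 99.1 in SL. *Retnlg* was listed at 0 in HP and stood at 98.7 and 97.6 in SL, and *Fcnb*, a ficolin of neutrophil granules, was listed at 0 in HP and stood at 91.6 and 93.5. *Mpo*, myeloperoxidase, was high in HP already, at 78.6, and was at 99.5 and 99.3 in SL. The uFIB day 21 library was not free of this group. *S100a8* was at 52.0 in uFIB day 12 and 97.8 in uFIB day 21, *S100a9* at 41.0 and 95.7, and *Ngp* at 49.2 and 89.4, against 99.9 or more in SL, and the median of the list was 37.7 in uFIB day 12 and 50.4 in uFIB day 21. With uFIB day 12 alone as the starting cells, 65 genes were gained. The source of these values in the untreated cells was not tested.

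Macrophage genes separated within their own list. Of 32, 7 were higher (21.9%, against 3.55% of all genes) and 1 lower (3.1%, against 1.68%). The median of 52.2 in HP, 98.5 in MAC and 63.1 and 52.6 in SL kept SL far from the ESC-derived macrophages. The 7 were *Lyz1*, *Fcgr3*, *Fcgr2b*, *Cybb*, *Lgals3*, *Ccl6* and *Clec4d*, genes of lysozyme, Fc receptors, the oxidative burst, a galectin, a chemokine and a lectin receptor, of which granulocytes also express several. With a difference of 40 points 1 of the 7 (*Lyz1*) was higher, against 16 of the 17 neutrophil genes. *Fcgr3* was at 69.1 in HP, 99.9 in MAC, and 97.9 and 95.6 in SL. The complement gene *C1qb* was at 99.2 in MAC, 39.5 in HP and 27.3 and 12.8 in SL, the scavenger receptor *Msr1* at 99.7 in MAC and 43.6 and 37.5 in SL, and *Csf1r*, the M-CSF receptor, at 98.9 in MAC, 60.4 in HP and 41.9 and 40.5 in SL. Markers of resident macrophages such as *Timd4* and *Spic* were listed at 0 in both SL libraries. Of 13 antigen presentation genes, none was lower and 1 was higher (*Tap2*, 7.69%, against 3.55% of all genes). Their median was 42.3 in HP, 89 in MAC and 47.5 and 51.6 in SL. *Cd74*, the invariant chain of class II, was at 96.7 in MAC, 40.1 in HP and 46.8 and 41.6 in SL. Lymphoid genes had no member called in either direction among 12. With 1.68% of all genes called lower and 3.55% higher, the lack of calls in so short a list says little.

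**Figure D4:**
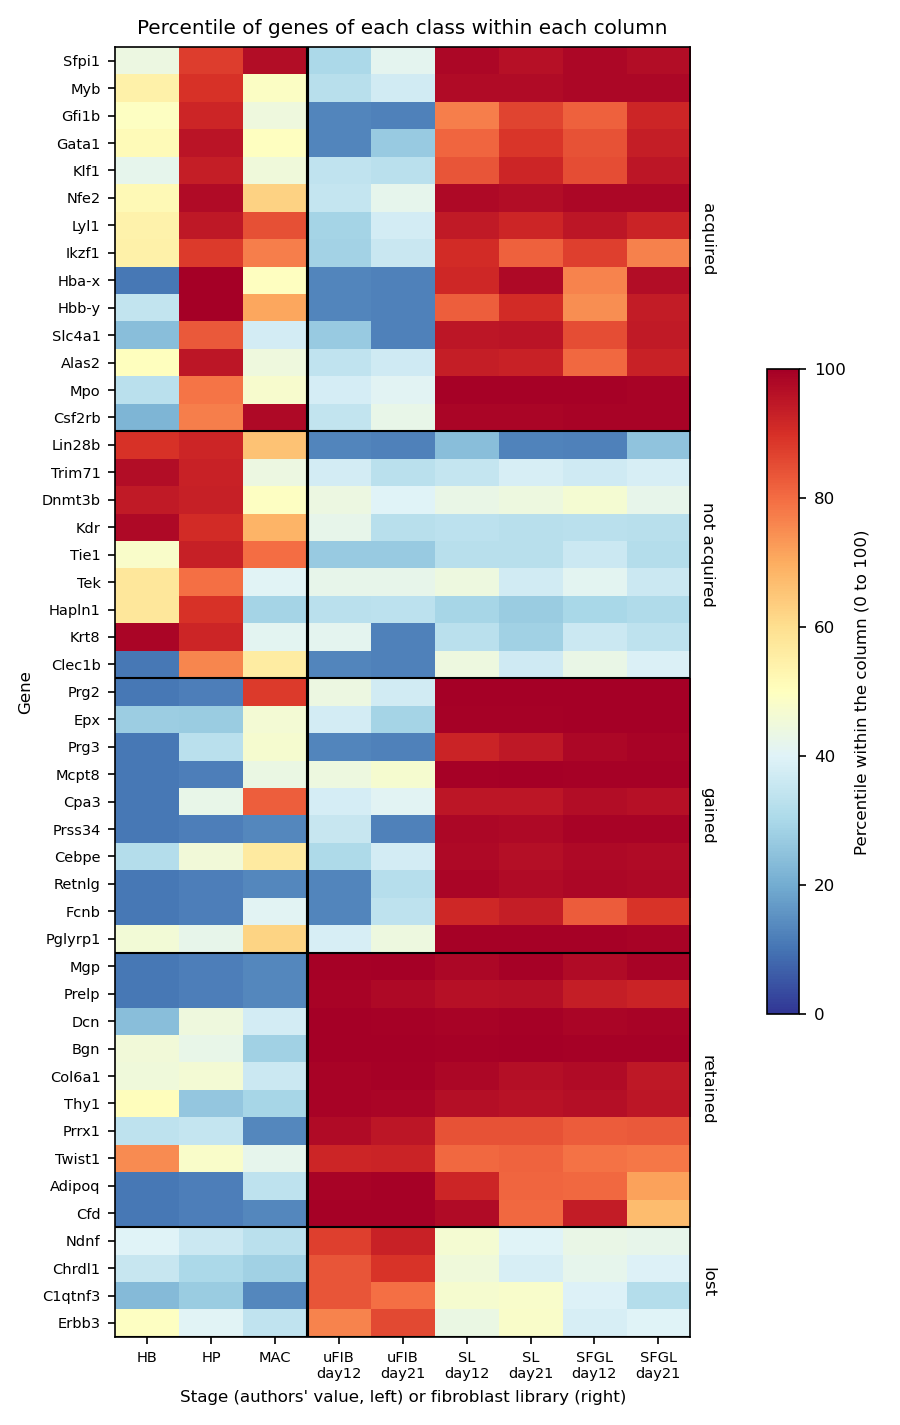
Percentile (color, 0 to 100) of 47 genes (rows) of the 5 classes acquired, not acquired, gained, retained and lost in 3 stages and 6 fibroblast libraries (columns), with a line between the tables. *Lin28b* is at 92 in HP and under 30 in all 6 libraries, and *Prg2* is above 99 in all SL and SFGL libraries.

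SL kept much of the fibroblast program. There were 340 genes (1.72%) that were high in both uFIB libraries and low in HP, and 134 of them (0.678%) were high in both SL libraries, 202 (1.02%) lay between and 4 (0.0202%) were low in both. The median of the 340 was 89.5 and 90.9 in uFIB, 73.4 and 74.4 in SL, and 70.4 and 69.6 in SFGL. In SFGL, 110 of the 134 retained genes were high in both libraries, as were 112 of the 340. Of the 134, 84 ranked at least 25 points higher in every fibroblast library than in every stage, among them *Mgp* as well as *Gapdh* and *Fth1*. Without such genes the count of retained genes was 50.

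Fibroblast matrix and surface genes were called higher in SL than in HP for 26 of 46 members (56.5%, against 3.55% of all genes). Their median was 56.3 in HP, 99.1 and 99 in uFIB, and 96.8 and 96.7 in SL. Without the genes that differed between the tables in every column 9 were higher, and with a difference of 40 points 16 were. *Mgp*, matrix Gla protein, was listed at 0 in HP, HB and MAC, and was at 99.6 and 99.9 in uFIB and 98.3 and 99.3 in SL. The small proteoglycan genes *Dcn* and *Bgn* behaved alike, with *Dcn* at 44.9 in HP, 99.7 and 99.6 in uFIB, and 99 and 99.4 in SL. *Col6a1*, a chain of collagen VI, was at 46.2 in HP and 98.2 and 96.6 in SL. *Col1a1* and *Col1a2* were not called, because both were high in HP, at 84 and 88.4. *Thy1*, a surface marker of fibroblasts, was at 26.1 in HP and 96.7 and 96.0 in SL. *Fbln5* and *Mfap5*, genes of elastic fibers, were the 2 members that ranked at least 25 points below both uFIB libraries, where 0.278% of all genes did, with *Fbln5* at 91.1 and 92.6 in uFIB and 58.8 and 59.0 in SL.

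The transcription factors of fibroblasts ranked between HP and uFIB. Their median over 34 genes was 40.3 in HP, 74.0 and 76.0 in uFIB, and 56.2 and 62.5 in SL. Of the 34, 7 were higher than in HP (20.6%, against 3.55% of all genes), and at a difference of 40 points 1 was. *Prrx1*, a homeobox factor of limb and craniofacial mesenchyme, was at 35.1 in HP, 97.5 and 95 in uFIB, and 84.2 and 84.3 in SL, and *Twist1* was at 48.2 in HP, 91.8 and 92.4 in uFIB, and 80.6 and 81.6 in SL. *Tbx15* was at 85.3 and 78.5 in uFIB and 70.4 and 67.6 in SL. All 3 stood below uFIB and above HP in both SL libraries, but no member of the list ranked at least 25 points below both uFIB libraries.

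Genes of fat cells were high in the untreated fibroblasts and differed between the days in SL. The median of the 6 measured was 24.6 in HP, 99.2 and 99.4 in uFIB, and 94.8 and 80.8 in SL. *Adipoq* (adiponectin) was listed at 0 in HP and was at 98.9 and 99.3 in uFIB, 92.1 in SL day 12 and 80.9 in SL day 21. *Plin1*, which coats lipid droplets, was at 84.7 in SL day 12 and 51.4 in SL day 21. Smooth muscle genes had no member called among 19, which says little where 1.68% of all genes were called lower and 3.55% higher.

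The 4 genes that were lost were *Ndnf*, *Chrdl1*, *C1qtnf3* and *Erbb3*. *Ndnf*, a secreted factor, was at 87.1 and 92.8 in uFIB, 46.5 and 40.03 in SL, and 35.9 in HP. *Chrdl1*, a BMP antagonist, was at 84 and 89.4 in uFIB and 45.2 and 38.5 in SL, and *Erbb3*, a neuregulin receptor, was at 76.3 and 85.9 in uFIB and 43.4 and 48.1 in SL. All 4 were also low in both SFGL libraries, as were 15 of the 340 genes high in uFIB and low in HP. With SL day 21 alone, 29 genes met the rule for loss, so the number lost rests on requiring both days.

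Further lists differed little or in single members. Of 24 chemokine and cytokine genes, 8 were higher (33.3%, against 3.55% of all genes), among them *Ccl2*, *Cxcl12* and *Il6*, and *Ccl17* was lower. Without the genes that differed between the tables in every column 5 were higher, and with a difference of 40 points 4 were. Of the 24, 6 were high in both uFIB libraries, near the share of all genes (4602 of 19756). Of 22 lysosomal genes, *Ctsh* and *Ctsk* were higher (9.09%, against 3.55% of all genes). Among 76 respiratory chain subunits, 5 were higher (6.58%) and none lower. All 5 ranked higher in every fibroblast library than in every stage, and without such genes none was higher. The pluripotency genes *Pou5f1* and *Dppa5a* (20% of 10) and the simple epithelial keratins *Krt8* and *Krt18* (33.3% of 6 epithelial genes) were lower, against 1.68% of all genes. Genes of cartilage and bone and of neurons had no member called among 7 each, which for lists this short says little.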

How the data were processed

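Gene expression was read from the FPKM values that the authors deposited in 2 tables. For the stages, the authors aligned SOLiD reads of rRNA-depleted RNA with SHRiMP to mm10, used only uniquely placed reads after Picard had taken out duplicates, and estimated values by Cufflinks, and the deposited FPKM combine both replicates into 1 value per transcription start site (TSS). For the fibroblasts, the submitters' processing notes name TopHat and Cufflinks (versions not given in the sources used here), with 1 FPKM value per gene and library. Further values, 1 column for a stage with no sample here, were not used.

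TSS values were summed per gene, genes named more than once in a table were left out, and percentile ranks were taken within each column with average ranks for ties (Python 3.11.15, pandas 2.3.3). A gene at 0 FPKM lies at percentile 12.0 in HP. High was percentile 75 or more, low under 50, and a call needed 25 points. Genes were named from fixed lists, and from the 10 of each class with the largest difference in percentile between the groups that define it, leaving out small RNA, histone, Rik and Gm symbols, while *Gapdh*, *Fth1*, *Mef2c* and the globins were added after their values were seen. Genes and lists were chosen with earlier results of these data known. The rules were tested on simulated data. Samples were grouped by their labels. Alternatives were other ties, filters, TSS handling, thresholds, days and libraries. Promoters came from RefSeq (GRCm38.p6). Some listed genes were not analysed here or are not reported here.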

Additional observations from a re-analysis of the deposited data

Results flagged for a closer look

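Some genes of the gained and acquired classes were also high in a library that took no part in the comparisons of SL with HP and uFIB. In the library labelled with FLI1, GATA2 and LMO2 at day 12, 12 of the 50 gained genes were at percentile 75 or more, while by their choice none was in uFIB. In the same library 19 of the 60 acquired genes were at percentile 75 or more. By definition about the same share of all genes is that high in every column, as 4939 of 19756 were in HP. The 12 of 50 are near that share. In the day 21 library of that label the counts were 0 and 1. The median percentile of the 50 gained genes was 61.2 in the day 12 library and 33.3 in the day 21 library. It was 33.2 and 38.8 in uFIB, where the choice of genes kept it low. The label names no TAL1, but *Tal1* was at percentile 63.3 in the day 12 library and at 31.4 in the day 21 library. Endogenous and supplied *Tal1* cannot be told apart in these values.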

How the results depend on the processing

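No paired analysis was possible because the columns carry no replicate numbers and no result comes from a test. The lowest rank for ties or the highest TSS value moved no count of classes or calls by over 1.5 times. With only genes of at least 1 FPKM in HP, SL or uFIB ranked, 1802 genes were high in HP and SL, and the counts were 470 for high in HP and low in uFIB, 222 not acquired, 270 lacking, 643 high in uFIB and low in HP, 291 retained, 59 lost, 455 in excess and 98 gained, with 905 lower and 1091 higher calls, and Spearman's rho with HP was 0.657 and 0.670 for SL and 0.554 and 0.538 for uFIB. With high at percentile 90, the same classes held 1033, 104, 51, 55, 143, 41, 0, 91 and 24 genes, and 19 were acquired. With low under percentile 40, they held 111 high in HP and low in uFIB, 27 acquired, 44 not acquired, 58 lacking, 132 high in uFIB and low in HP, 48 retained, 0 lost, 91 in excess and 15 gained. With small RNA and histone genes left out before ranking, 41 were not acquired and 56 lacking, and rho was 0.872 and 0.876 for SL and 0.830 and 0.827 for uFIB. Day 12 alone gave 81 gained and 9 lost, day 21 alone 29 lost, and SFGL in place of SL 15 lost. A difference of 40 points gave 105 lower and 241 higher calls. The following were chosen after seeing the data. With uFIB day 12 or day 21 alone, 12 or 26 genes were lost. Without the genes that differ between the tables in every column, 54 were not acquired, 68 lacking, 50 retained and 147 in excess. The cause was not tested. Of the counts for gene lists, 21 moved by over 1.5 times and 140 did not.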
